A study of Dreissena polymorpha with 12 samples.

Results

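Zebra mussels from Mequinenza and Faio were compared with zebra mussels from the 2 sites at Flix, Flix Reservoir and Flix Factory. The population label of each sample chose the members: 8 of the 12 arrays of the series, 4 from Mequinenza and Faio and 4 from the Flix sites. Riba Roja and Sitjar, with 2 arrays each, served to show where other sites fall for the sequences that differed. All animals were wild Dreissena polymorpha collected in spring, in March, with no treatment named and no age or sex given. Mequinenza, Faio, Flix Reservoir, Flix Factory and Riba Roja are on the Ebro, and Sitjar is a dam 200 km from that river. Each array held RNA of 1 pool of 5 individuals. The tissue label is gills, but the collection protocol speaks of a portion of the body of each animal, so the tissue is not settled. No list of gill markers could be checked, because the files name sequences without annotation.

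The zebra mussel is a freshwater bivalve that lives attached to hard surfaces by byssal threads and feeds by filtering water over its gills. It is invasive in the Ebro. Mequinenza, Riba-roja and Flix are successive dammed stretches of the lower part of that river, with Mequinenza the farthest upstream, and Faio lies between Mequinenza and the Riba-roja dam. Flix is known for a chemical plant beside its reservoir, whose past discharges left polluted sediment there. The labels give no exposure, concentration or water measurement for any sample. The comparison asks which expressed sequences differ between mussels of Mequinenza and Faio and mussels of the Flix sites.

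The arrays were one-colour Agilent arrays with 13654 probes for 3541 named sequences. Nearly all names are database accessions of mussel sequences, most of them expressed sequence tags, which are short single reads of cloned transcripts. None of the 3541 names matched the RefSeq gene table of this species, so the sequences are given by accession with no gene name or role. Signals are log2 values after quantile normalisation, so a difference of 1 is a 2-fold difference. Levels of different probes cannot be compared with each other. Tests covered the 2806 probes that the scanner software called well above background on each of the 12 arrays. They covered 1226 sequences. The share of probes well above background was 32.8% and 22.5% on the Mequinenza arrays, 30.7% and 26.1% on the Faio arrays, 30.3% to 33.0% on the Flix arrays, 28.9% to 32.8% on the Riba Roja arrays and 33.5% to 34.7% on the Sitjar arrays. The second arrays of Mequinenza and Faio were thus the dimmest. A probe therefore needed signal on those arrays to be tested at all.

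The layout of the slides bears on every result below. The replicate number was also the slide, since slide 1 carried the first array of each site and slide 2 the second, and 1229 of the 2806 probes (43.8%) differed between the slides. Slide was therefore a term of the model. The arrays of Mequinenza, Faio and Sitjar also lay in the second row of array positions on both slides, and those of Riba Roja, Flix Reservoir and Flix Factory in the first row. The row of array positions and the comparison of Mequinenza and Faio with the Flix sites cannot be told apart. Riba Roja shared the row of the Flix sites, and Sitjar shared the row of Mequinenza and Faio.

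With slide in the model, 92 of the 2806 probes (3.28%) differed between Mequinenza and Faio and the Flix sites at an adjusted p under 0.05 in limma. Of these, 57 (2.03%) were higher and 35 (1.25%) were lower in Mequinenza and Faio. They belonged to 65 sequences, 39 with higher and 26 with lower probes, and no sequence had calls in both directions. The higher probes differed by 0.58 to 4.93 on the log2 scale (median 1.36). The lower probes differed by -2.03 to -0.52 (median -0.89). At least a 2-fold difference was measured for 36 of the 57 higher probes and 12 of the 35 lower probes, against 4.56% of all tested probes, called or not. At least a 4-fold difference was measured for 13 higher probes and 1 lower probe. Over all tested probes the median difference was -0.0005 and the median absolute difference 0.21. Fewer cells of a type and less RNA per cell cannot be told apart in such pools.

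The size of this set depended on the model, the scaling and the background filter. Without the slide term 13 probes were called, 6 higher and 7 lower. Scaling to the 75th percentile of the tested probes gave 58 calls, 44 higher and 14 lower. Scaling to the median gave 86, with 64 higher and 22 lower, and normexp background correction gave 70, with 53 higher and 17 lower. Scaling to the 75th percentile of all probes, which moved the median of all differences to -0.33, gave 343 calls, 40 higher and 303 lower. A wider filter, which asked for clear signal only on the 2 arrays of any single site, tested 4249 probes. It gave 119 calls, 37 higher and 82 lower, and 45 of them were among the 92. With no filter on dim probes 17 were called, 9 higher and 8 lower. The balance of higher and lower calls is therefore relative to the scaling and to the filter. All 92 probes kept their direction under each of these settings, which the choice of probes on the same arrays favours. Removing the slide term cannot change a difference, since every site had an array on each slide. With only 2 pools a site and 2 sites a group, p-values measure the spread between pools and their arrays, which may be partly technical. The median standard error was 0.17, which gives a 95% interval of 0.39 to either side of a difference.

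**Figure D1:**
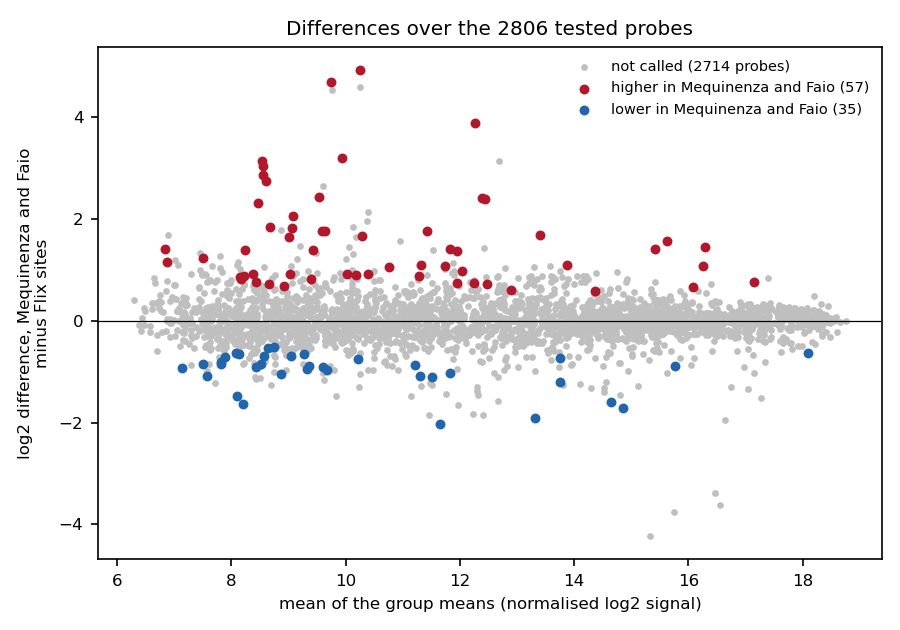
Log2 difference between Mequinenza and Faio and the Flix sites (vertical axis) against the mean normalised log2 signal (horizontal axis) for the 2806 tested probes, 1 point a probe. The 57 higher probes (red) reach 4.93 and the 35 lower probes (blue) reach -2.03, while 4 uncalled probes of 1 sequence lie between -4.23 and -3.38.

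Called probes were mostly dim. With the tested probes ranked by mean signal and split in 3, the dimmest 936 held 54 of them (5.77%), the middle 935 held 28 (2.99%) and the brightest 935 held 10 (1.07%). The median signal of the called probes was 9.62, against 12.30 over all tested probes. The dimmest also had the larger median absolute difference, 0.27 against 0.15 for the brightest.

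AF086635 was higher on every probe. All 5 of its probes were called, 6.75-fold to 9.20-fold higher in Mequinenza and Faio. On probe CUST_211 the signals were 10.68 and 11.56 in Mequinenza and 12.09 and 11.85 in Faio, against 8.65 and 8.63 in Flix Reservoir and 7.95 and 8.14 in Flix Factory. The 2 groups did not overlap. Their means were 11.55 ± 0.62 and 8.34 ± 0.35 (SD, n = 4 each), a difference of 3.20 (SE 0.55, adjusted p = 0.0329 in limma). The same probe gave 8.13 and 11.47 in Riba Roja and 7.89 and 9.64 in Sitjar. The first arrays of those sites were at the level of the Flix sites, while the second Riba Roja array was inside the range of Mequinenza and Faio. Over its 5 probes the mean difference from the Flix sites was 3.74 for Faio and 2.25 for Mequinenza.

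AF086634 had all 4 of its probes called, 3.16-fold to 3.40-fold higher. Probe CUST_219 gave 11.15 and 12.43 in Mequinenza and 12.64 and 13.01 in Faio, against 10.23 and 10.76 in Flix Reservoir and 10.31 and 10.90 in Flix Factory. All 4 values of Mequinenza and Faio were above those of the Flix sites, and the difference was 1.76 (SE 0.28, adjusted p = 0.0286 in limma). Here too the second arrays of Riba Roja and Sitjar, at 12.23 and 11.50, were higher than the first, at 10.08 and 10.30. Together with AF508224, these sequences gave 12 called probes among the 24 tested probes (50%) whose names begin with AF, all of them higher, against 2.03% called higher over all tested probes. The 12 probes came from 3 of 5 AF sequences, so they share their targets, and the group was noticed after the values were seen.

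AF508224 differed mostly at Mequinenza. Its probe CUST_4 is spotted 25 times on each array, and the copies had a median SD of 0.09 within an array. It gave 15.09 and 14.48 in Mequinenza and 12.47 and 12.37 in Faio, against 11.42 and 11.07 in Flix Reservoir and 11.27 and 10.98 in Flix Factory. Every array of Mequinenza and Faio was above every Flix array, and the 2 Mequinenza arrays were well above the 2 Faio arrays. The difference was 2.42 (SE 0.17, adjusted p = 0.00127 in limma), a 5.34-fold higher signal. Mequinenza was also higher than Faio, by 2.36 (SE 0.24, adjusted p = 0.0287 in limma). Riba Roja, at 12.52 and 12.54, lay at the level of Faio, and Sitjar, at 11.61 and 12.01, below it.

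The other probes of AF508224 did not all behave like CUST_4. Probe CUST_68 was also called and differed by 2.40. Probe CUST_48 was called at 3.89, with its first Flix Factory array at 7.38 and the other 3 Flix arrays at 11.25 to 11.35. Probe CUST_70 differed by 3.14 without passing the threshold (adjusted p = 0.0888 in limma). Probe CUST_69, the brightest of the 5, averaged 17.70 in Mequinenza and Faio and 17.88 in the Flix sites, a difference of -0.18 (adjusted p = 0.373 in limma). The probes were given under the same name, and which of them reports the transcript was not tested.

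EY435531 had all 3 tested probes called, 4.16-fold to 5.42-fold higher. On probe CUST_6208 the signals were 9.26 and 11.28 in Mequinenza and 8.60 and 9.38 in Faio, against 6.36 and 9.22 in Flix Reservoir and 5.70 and 7.95 in Flix Factory. The groups overlapped across slides and did not overlap within a slide, where their means differed by 2.90 on slide 1 and 1.74 on slide 2. On slide 2 the second Faio array was only just above the second Flix Reservoir array. The difference was 2.32 (SE 0.37, adjusted p = 0.0286 in limma). Sitjar, at 5.79 and 6.35, lay below the mean of the Flix sites.

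EY435773 showed a smaller difference that was even between the 2 sites. All 5 of its probes were called, 1.66-fold to 2.15-fold higher. Probe CUST_3675 gave 11.37 and 11.25 in Mequinenza and 11.25 and 11.26 in Faio, against 10.45 and 9.97 in Flix Reservoir and 10.10 and 10.39 in Flix Factory. The 4 values of Mequinenza and Faio lay close together and above all 4 Flix values, and the difference was 1.06 (SE 0.14, adjusted p = 0.0161 in limma). Riba Roja, at 10.33 and 10.27, was at the level of the Flix sites. Sitjar, at 10.74 and 10.50, was between the 2 groups.

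EY435457, EY435248 and EY436759 each had 2 called probes. EY435457 was 2.57-fold and 2.64-fold higher on its 2 tested probes, although its first Mequinenza array, at 11.41 on CUST_812, was below the second Flix Factory array, at 12.16. EY435248 was 1.81-fold and 1.88-fold higher on 2 of 3 tested probes. EY436759 was 1.78-fold and 1.89-fold higher on 2 of 4 tested probes, and the difference was that of Mequinenza, not of Faio. On its probe CUST_478 Mequinenza gave 10.57 and 12.13 and Faio 9.08 and 10.19, against 8.80 and 9.96 in Flix Reservoir and 9.32 and 10.20 in Flix Factory. Mequinenza minus Faio was 1.71 (adjusted p = 0.0389 in limma), while Faio minus the Flix sites was 0.06 (adjusted p = 0.899 in limma).

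The largest single differences were those of AJ517697 and AJ517707. AJ517697 gave 11.54 and 12.23 in Mequinenza and 14.19 and 12.91 in Faio, against 8.70 and 8.84 in Flix Reservoir and 7.005 and 6.62 in Flix Factory. Its difference was 4.93 (SE 0.97, adjusted p = 0.0399 in limma), a 30.4-fold higher signal on its single tested probe. AJ517707 was 25.8-fold higher on its called probe (difference 4.69, adjusted p = 0.0486 in limma), and its other 2 tested probes, at 4.59 and 4.53, just missed the threshold. Riba Roja gave 7.92 and 12.99 and Sitjar 7.78 and 11.07 for AJ517697. The first arrays of both sites were thus within the range of the Flix arrays, and the second were far above it.

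AM230425, listed for description whatever its values, had 1 of 4 probes called. Probe CUST_11334 gave 15.62 and 14.74 in Mequinenza and 13.97 and 12.64 in Faio, against 12.20 and 12.08 in Flix Reservoir and 13.50 and 12.43 in Flix Factory. The second Faio array was below the first Flix Factory array, so the groups overlapped. The difference was 1.69 (SE 0.30, adjusted p = 0.0339 in limma), and the other 3 probes differed by 0.69 to 0.76 without passing. Of the others so listed, the 6 probes of AF508222 and the 6 probes named RXR were not above background on all arrays and were not tested.

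Among the lower sequences, AJ517619 had 3 of 5 probes called, 3.02-fold to 3.78-fold lower in Mequinenza and Faio, and the other 2 differed by -1.86 and -1.84 without passing. Probe CUST_7866 gave 14.31 and 14.14 in Mequinenza and 13.48 and 13.45 in Faio, against 15.70 and 15.85 in Flix Reservoir and 15.30 and 14.90 in Flix Factory. All 4 values of Mequinenza and Faio were below all 4 Flix values. The difference was -1.59 (SE 0.17, adjusted p = 0.00994 in limma). Riba Roja, at 15.82 and 15.45, was at the level of the Flix sites. Sitjar, at 13.85 and 14.41, was close to Mequinenza and Faio.

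AJ517631, EY435103, EY434018 and EY434102 were lower on every tested probe. The 3 tested probes of AJ517631 were 1.79-fold to 2.06-fold lower. Its probe CUST_7828 gave 8.43 and 7.86 in Mequinenza and 8.59 and 8.55 in Faio, against 9.75 and 9.59 in Flix Reservoir and 9.25 and 9.002 in Flix Factory, with no overlap (difference -1.04, SE 0.13, adjusted p = 0.0152 in limma). EY435103 was 2.79-fold and 3.11-fold lower. Its probe CUST_9538 gave 7.52 and 7.49 in Mequinenza and 7.27 and 7.14 in Faio, against 8.70 and 9.25 in Flix Reservoir and 8.95 and 8.43 in Flix Factory. Both Riba Roja arrays, at 7.49 and 8.23, and both Sitjar arrays, at 7.36 and 7.82, were below all 4 Flix arrays for that probe. EY434018 was 1.69-fold and 1.92-fold lower, and EY434102 1.58-fold and 1.85-fold lower.

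AJ517653 and EY434956 had 2 of 4 tested probes called each, with larger differences at Mequinenza. For AJ517653 on CUST_11737, Mequinenza gave 10.26 and 10.61 and Faio 11.21 and 11.75, against 11.48 and 13.00 in Flix Reservoir and 11.32 and 12.46 in Flix Factory. Riba Roja, at 10.27 and 11.53, was as low as Mequinenza and Faio for this sequence. For EY434956 on CUST_1771, Mequinenza gave 10.20 and 10.06 and Faio 11.06 and 11.68, against 11.39 and 12.24 in Flix Reservoir and 11.50 and 12.23 in Flix Factory. The second Faio array was within the Flix range.

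The remaining named lower sequences, EY434608 and EY435231, had 1 called probe each. EY434608 averaged 10.64 ± 0.48 in Mequinenza and Faio and 12.67 ± 0.96 in the Flix sites (SD, n = 4 each), a 4.07-fold lower signal (difference -2.03, adjusted p = 0.0491 in limma). Sitjar was lower still, at 7.90 and 9.51. EY435231 was 2.30-fold lower on 1 probe (difference -1.20), while its 2 brighter probes differed by -0.06 and 0.18.

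**Figure D2:**
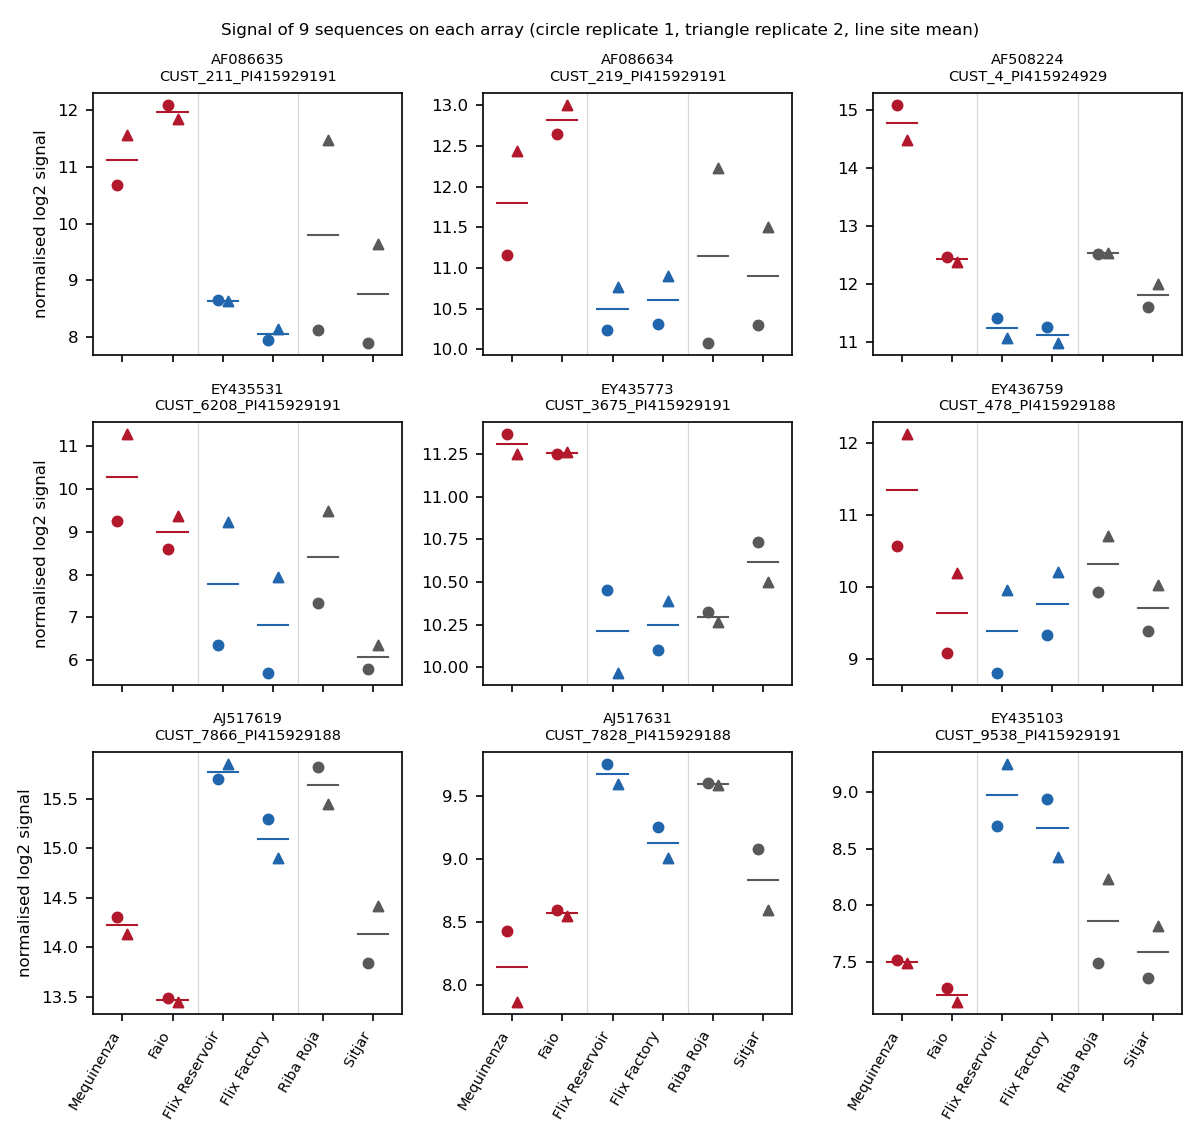
Normalised log2 signal (vertical axis) of 9 sequences on each of the 12 arrays, with circles for replicate 1, triangles for replicate 2 and a line for the mean of a site. Mequinenza and Faio (red) are on the left, the Flix sites (blue) next and Riba Roja and Sitjar (grey) on the right; for AF086635 the second Riba Roja array (11.47) stands beside Mequinenza and Faio and the first (8.13) beside Flix.

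Size alone did not make a call. Among the probes that were not called, 9 differed by 4-fold or more, 5 higher and 4 lower. The 4 lower ones were the 4 tested probes of AM503945, a sequence named after its values were seen. Its probe CUST_10188 gave 14.11 and 10.40 in Mequinenza and 12.68 and 15.66 in Faio, against 18.24 and 16.33 in Flix Reservoir and 18.11 and 17.08 in Flix Factory. The groups did not overlap, but the arrays of a site were far apart, and the adjusted p was 0.0595 in limma. The 4 probes were 10.4-fold to 18.7-fold lower in Mequinenza and Faio, with adjusted p of 0.0565 to 0.0731. With its probes averaged before the fit, AM503945 was called (difference -3.75, adjusted p = 0.0491 in limma). Riba Roja, at 18.46 and 16.96, was at the level of the Flix sites, and Sitjar, at 15.97 and 12.55, was below it. The Sitjar mean of 14.26 was nearer the 13.21 of Mequinenza and Faio than the 17.44 of the Flix sites.

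Mequinenza and Faio were then set against the Flix sites one at a time. Mequinenza alone had 73 called probes (2.6%), 42 higher (1.5%) and 31 lower (1.1%). Faio alone had 22 (0.784%), 12 higher (0.428%) and 10 lower (0.356%). Both comparisons use the same 4 Flix arrays. Of the 92 probes, 51 were also called for Mequinenza alone, 18 for Faio alone and 8 for both. For the 57 higher probes the median difference from the Flix sites was 1.24 at Mequinenza and 1.11 at Faio, and for the 35 lower probes it was -1.03 and -0.77. Both sites lay on the same side of the Flix mean for 56 of the 57 higher and all 35 lower probes, which the choice of probes favours.

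Mequinenza differed from Faio on 12 probes (0.428%), 10 higher (0.356%) and 2 lower (0.0713%), and 5 of the 12 were among the 92. Those 5 were 2 probes of AF508224, 2 of EY436759 and 1 of EY436647. Within Flix, the factory site and the reservoir site differed on 0 probes in limma, with 121 (4.31%) at an unadjusted p under 0.05 and a smallest adjusted p of 0.121. The median absolute difference over all tested probes was 0.27 for Mequinenza minus Faio and 0.15 for Flix Factory minus Flix Reservoir. Whether these sizes differ was not tested.

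The 4 arrays of Mequinenza and Faio were entirely above the 4 Flix arrays for 32 of the 57 higher probes and entirely below them for 23 of the 35 lower probes. Over all tested probes 172 (6.13%) were separated in either direction. Within each slide the groups were separate for 51 higher and 32 lower probes, against 470 (16.7%) of all tested probes. The probes were called on the same arrays, so the counts describe them and add no support. By site mean, Mequinenza was the highest of all 6 sites for 29 of the 57 higher probes, Faio for 26 and Sitjar for 2. Mequinenza was the lowest for 22 of the 35 lower probes, Faio for 11 and Sitjar for 2.

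**Figure D3:**
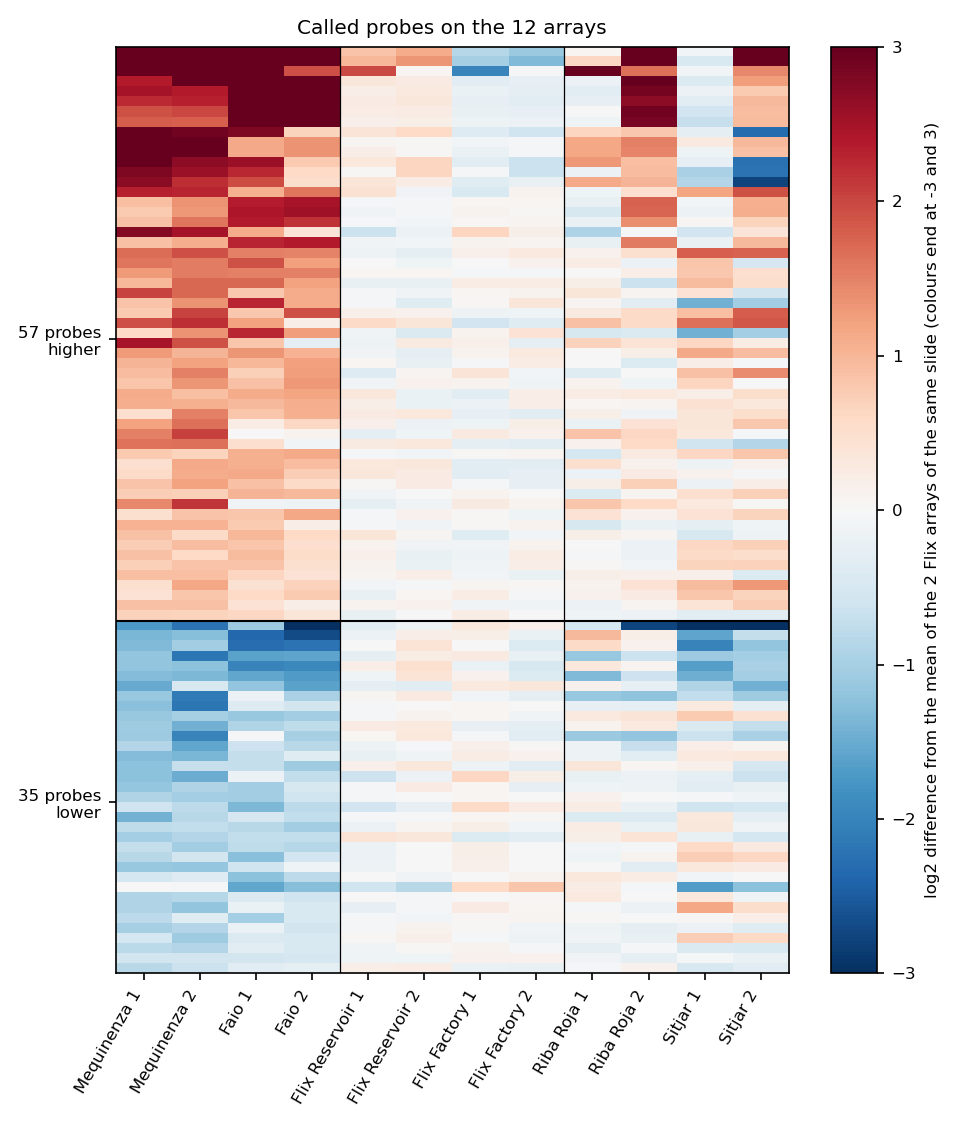
Log2 difference of each array from the mean of the 2 Flix arrays on its own slide (colour) for the 92 called probes (rows) on the 12 arrays (columns), with the 57 higher probes on top. Mequinenza and Faio are red above and blue below by selection; Riba Roja and Sitjar are pale on average, with medians of 0.07 to 0.66 for the higher probes and -0.33 to -0.04 for the lower.

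Riba Roja and Sitjar took no part in choosing the 92 probes except through quantile normalisation, the shared estimate of the spread and the background filter. Each site mean was placed on a scale where 0 is the mean of the Flix sites and 1 the mean of Mequinenza and Faio. Riba Roja had a median position of 0.18 (quartiles -0.08 and 0.41). It was nearer the Flix sites for 76 probes and nearer Mequinenza and Faio for 16. Sitjar had a median position of 0.24 (quartiles -0.05 and 0.70), nearer the Flix sites for 60 probes and nearer Mequinenza and Faio for 32. These positions are a description, with no test.

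The 2 sites agreed in part. Both were nearer the Flix sites for 50 probes, and both were nearer Mequinenza and Faio for 6. Sitjar alone was nearer Mequinenza and Faio for 26 probes, and Riba Roja alone for 10. Riba Roja lay between the 2 groups for 60 probes, beyond the Flix sites for 30 and beyond Mequinenza and Faio for 2. Sitjar lay between them for 58, beyond the Flix sites for 27 and beyond Mequinenza and Faio for 7. Lower probes gave a lower median for Riba Roja (0.08) than higher probes (0.24), and Sitjar had 0.30 and 0.23.

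**Figure D4:**
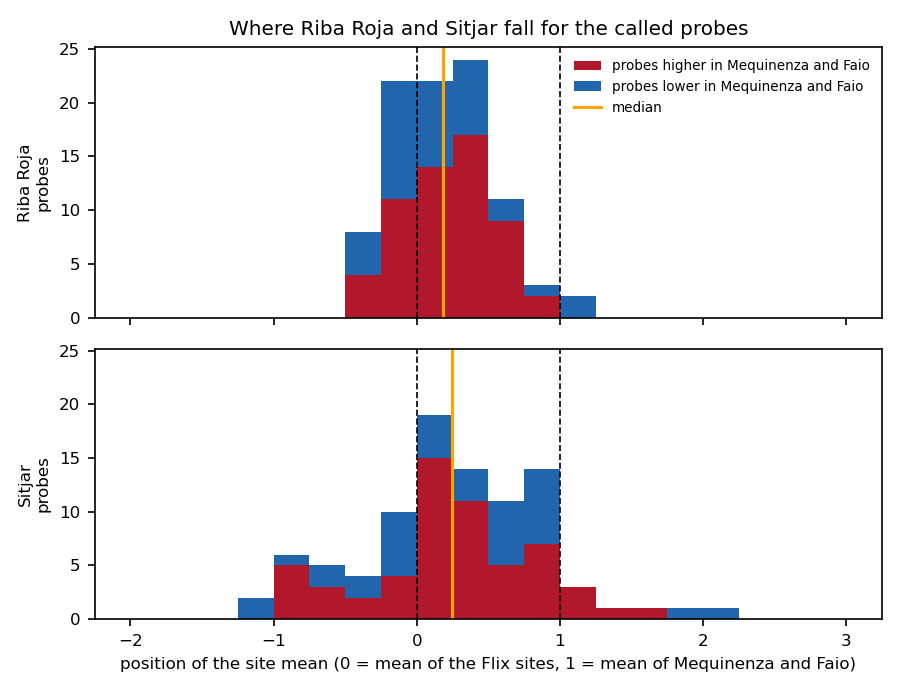
Number of called probes (vertical axis) by the position of the Riba Roja mean (top) and the Sitjar mean (bottom) between the mean of the Flix sites at 0 and the mean of Mequinenza and Faio at 1 (horizontal axis). The orange line marks the median, 0.18 for Riba Roja and 0.24 for Sitjar, and Sitjar has more probes near 1.

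For the higher probes the second arrays of Mequinenza, Riba Roja and Sitjar had larger medians than the first. Set against the Flix arrays of the same slide, the median over the 57 higher probes was 1.09 and 1.53 for the 2 Mequinenza arrays and 1.11 and 1.10 for the 2 Faio arrays. It was 0.07 and 0.41 for Riba Roja and 0.20 and 0.66 for Sitjar. For the 35 lower probes it was -1.07 and -1.02 for Mequinenza, -0.77 and -0.75 for Faio, -0.04 and -0.17 for Riba Roja, and -0.18 and -0.33 for Sitjar. Sitjar, in the row of Mequinenza and Faio, lay nearer that group than Riba Roja, in the row of the Flix sites, on both slides and in both directions. The medians of both sites were nearer the Flix sites, except for the higher probes on the second Sitjar array. Its median of 0.66 was nearer the 1.10 of the second Faio array. The part of the row in these positions was not tested.

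Probes of the same sequence did not always give the same answer. Of the 43 called sequences with at least 2 tested probes, all tested probes had the same direction in 31, and 9 had every tested probe called. In 14 of the 43 (32.6%) the probes differed from each other by 1 or more on the log2 scale, against 47 of all 780 such sequences (6.03%). A called probe far from its neighbours widens the first share by selection. EY435811 was named after its values were seen. Its probe CUST_1529 averaged 17.02 ± 0.10 in Mequinenza and Faio and 15.56 ± 0.08 in the Flix sites (SD, n = 4 each), a difference of 1.46 (SE 0.13, adjusted p = 0.00301 in limma). Its other 4 probes, which were brighter, differed by 0.02 to 0.25. EY435323, EY434279, AJ250733 and EY434008, likewise chosen with their values known, held 1 called probe apiece, at 1.65, 1.83, 1.42 and 1.57, and other probes at -0.36 to 0.35. What sets these single probes apart was not tested.

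When the probes of a sequence were averaged before the fit, 55 sequences were called, 29 higher and 26 lower, and 44 of them were among the 65 sequences with a called probe.

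The called set also depended on single arrays and sites. Leaving out the first Mequinenza array gave 410 calls, and leaving out the second gave 11. Leaving out the first Faio array gave 4 calls and the second 106. Leaving out the first or the second Flix Reservoir array gave 26 or 6, either Flix Factory array 12, either Riba Roja array 62, and either Sitjar array 21. A similar count need not hold the same probes. Without both dim second arrays of Mequinenza and Faio, 21 probes were called, 10 higher and 11 lower. Leaving out a site gave 38 calls without Mequinenza, 90 without Faio, 5 without Flix Reservoir and 12 without Flix Factory. The 90 calls without Faio held 49 of the 92 probes. All 92 probes kept their direction in each of these settings, except for 1 probe without Mequinenza and 1 without Flix Factory. The probes were chosen on these same arrays, which favours a kept direction, so it adds no support. Leaving out a Riba Roja or Sitjar array cannot change a difference between the other sites.

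Across all 33 other settings, 1 of the 92 probes was called in every one, 16 in at least 20 and 28 in under 10. CUST_1529 of EY435811 was the one called in all. CUST_4 of AF508224 and CUST_4849 of EY435323 were each called in 31, and CUST_68 of AF508224 in 30. CUST_7950 of EY435610 was called in 29 and CUST_7866 of AJ517619 in 28. CUST_9538 of EY435103, CUST_4326 of EY433901 and CUST_606 of EY434279 were each called in 24. EY435610 and EY433901 were named after these counts were seen. The 5 probes of AF086635 were called in 14 to 16 settings, and the called probe of AJ517697 in 14. For the last 2 sequences the difference stayed at 1.81 or above in every setting.

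**Figure D5:**
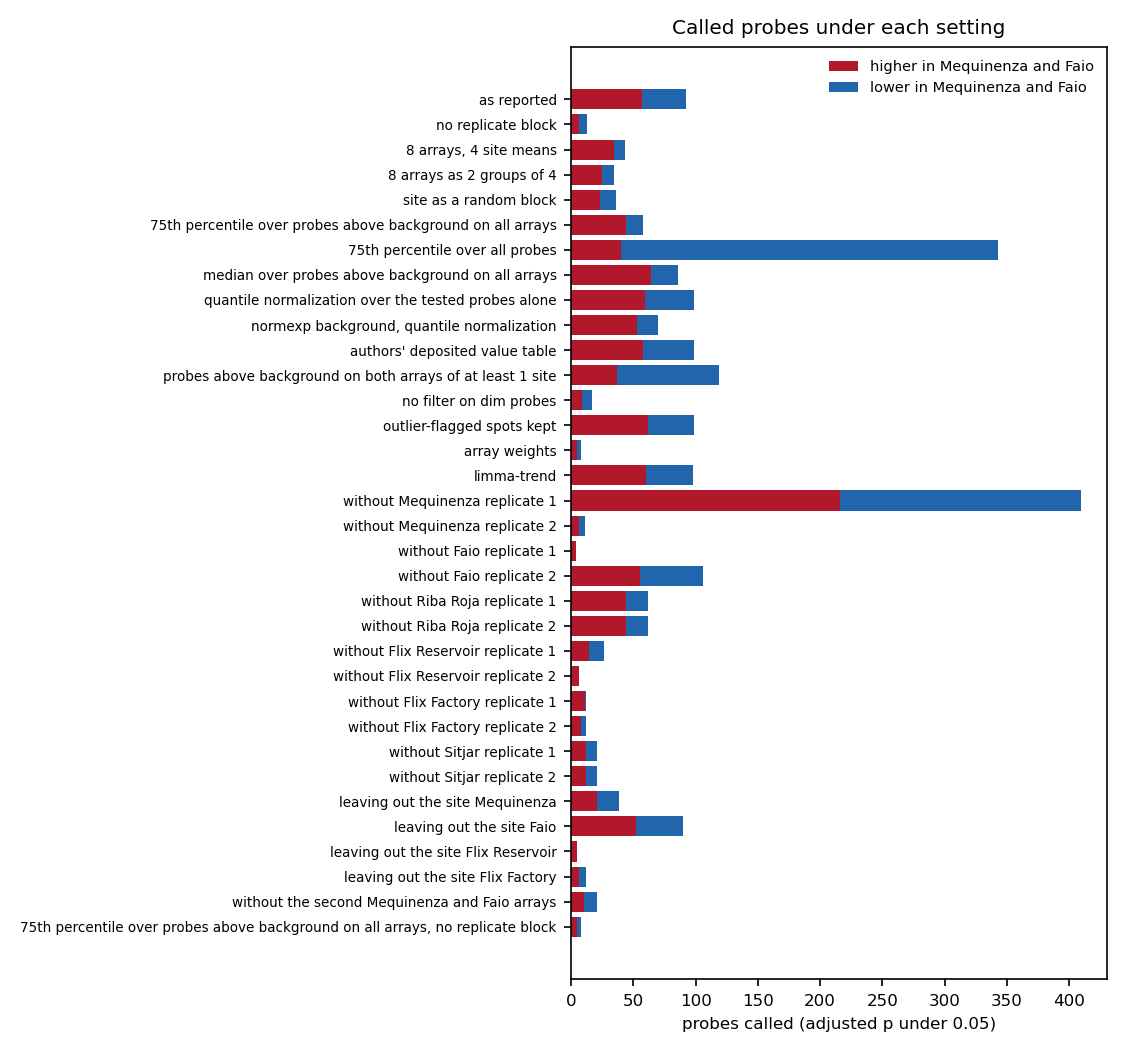
Number of probes called in Mequinenza and Faio against the Flix sites (horizontal axis) under each setting (rows), split into higher (red) and lower (blue). The count as reported is 92, and it ranges from 4 without the first Faio array to 410 without the first Mequinenza array.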

How the data were processed

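From each pool, 500 ng of RNA was amplified with Cy3 label for a one-colour Agilent array, per the labels' protocols. Spot intensity values were made with Agilent Feature Extraction 10.5.1.1 per the file headers, while the submitters' processing notes name 9.5. The deposited processed signal is a linear intensity, background-subtracted and not scaled between arrays. The authors' deposited table is on the log2 scale, with correlations of 0.985 to 1.00 with the log2 of the scanner's processed signal. Its column medians (first array, second array) were 2.99, 3.26 at Mequinenza and 2.99, 3.01 at Faio. They were 2.99, 3.06 at Flix Reservoir and 3.01, 3.09 at Flix Factory. They were 2.93, 3.13 at Riba Roja and 2.93, 2.94 at Sitjar. Its centring stays unknown, and it served as an alternative.

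Control spots and the 29 to 67 outlier-flagged spots an array were left out, no spot was saturated, and repeated spots of a probe were averaged on the log2 scale and quantile normalised over all non-control probes. Probes well above background on all 12 arrays were tested. A probe with copies counted as such where more than 0.5 of its copies were. One limma fit (3.58.1, R 4.3.3) had the 6 site means and slide. Adjusted p-values are two-sided, by the Benjamini-Hochberg method over the 2806 probes, with a threshold of 0.05. The scripts were tested on simulated data. Per the file headers, slide, scan and replicate number were one factor. The replicate numbers pair the samples through the slide: deviations of same-numbered arrays correlated at 0.42 to 0.76 over all 15 pairs of sites, and slide is the block in every fit but those named. The number of arrays limits the precision, and the 2 pools of a site had a median SD of 0.39, or 0.24 with slide removed. No source says how individuals were divided between pools.

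Named sequences were those with at least 2 called probes (up to 10 higher and 10 lower), the 8 called probes with the largest difference each way, and all tested probes of AF508224, AF508222, AM230425 and RXR. Values by array are those of the called probe with the smallest p, except where another probe is named. Of the probes named for size, those of sequences described under another part of the rule are not repeated. The comparison and these lists were chosen with earlier results of these data known. The alternative with normexp used the median signal and median background, since the mean signal is not among the columns. Coordinates and sequences are not given, since the names could not be placed on a genome here.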

Additional observations from a re-analysis of the deposited data

Results flagged for a closer look

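The named called probes and the shares of probes above background gave 96 groups of 4 arrays. In 4 of these groups 1 array stood apart. For alike arrays chance gives about 1 in 20. The groups mix sites and slides, and some come from probes of the same sequence, so that rate does not apply directly. The first Flix Factory array read 7.38 on CUST_48 of AF508224, against 11.25 for the next Flix array. The first Mequinenza array read 11.46 and 11.41 on the 2 probes of EY435457, CUST_544 and CUST_812, against 12.79 and 12.98 for the next array of Mequinenza and Faio. The same array read 11.37 on CUST_3675 of EY435773, against 11.26 for the next.

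Mequinenza and Faio differed from each other on 4 named called probes by limma's contrast at an adjusted p under 0.05. Mequinenza minus Faio was 2.36 on CUST_4 and 2.31 on CUST_68 of AF508224, and 1.71 on CUST_478 and 1.93 on CUST_712 of EY436759.

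Detection outside the tested probes was uneven. Of all 13654 probes, 6895 were well above background on no array. On none of the 4 Mequinenza and Faio arrays but all 4 Flix arrays, 48 probes of 45 sequences were well above background, against 1 probe the other way. The count of 48 includes the dim second arrays of Mequinenza (22.5% of probes above background) and Faio (26.1%), whose part in it was not tested. Of the 48 probes, 21 were also above background on both Riba Roja arrays and 29 on both Sitjar arrays. Over all probes the share was 28.9% to 32.8% on single Riba Roja arrays and 33.5% to 34.7% on single Sitjar arrays. The 48 were chosen as above background on the Flix arrays, and the share on both arrays of a site was not counted. As a limit from the lowest signals well above background, the signal in Mequinenza and Faio was at least 6.49-fold lower for EY435050, 4.40-fold for EY436624 and 2.04-fold for EY434461. The limit for EY435050 rested on the second Flix Factory array, at 13.20 against 5.86 to 7.07 for the other 3 Flix arrays, and was 2.01-fold without it, an alternative chosen after seeing the data. The other 45 limits were under 2, 12 of them under 1. The probe the other way, CUST_11796 of AJ517718, was at least 3.12-fold higher in Mequinenza and Faio.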

How the results depend on the processing

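The comparison of Mequinenza and Faio with the Flix sites gave 92 calls. Without the replicate block it gave 13, and without it after 75th-percentile scaling 8. Other models gave 43 (8 arrays, 4 site means), 34 (8 arrays, 2 groups of 4), 36 (site as a random block) and 8 (array weights). Scaling to the 75th percentile gave 58 over the tested probes and 343 over all probes. No filter on dim probes gave 17, means over a sequence's probes 55, and the filter on both arrays of at least 1 site 119, with 37 higher and 82 lower. Leaving out Mequinenza, Flix Reservoir or Flix Factory gave 38, 5 and 12, leaving out both dim second arrays (chosen after seeing the data, like the 75th percentile without block) 21, and single arrays 4 to 410.

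Mequinenza minus the Flix sites (73) gave 6 without the replicate block, 42 with 8 arrays, 25 and 125 with the 75th percentile over tested and all probes, 3 with array weights, and 4 to 419 without single arrays. Faio minus the Flix sites (22) gave 4 without the block, 205 with the 75th percentile over all probes, 5 with normexp, 8 with outlier-flagged spots kept, 5 with limma-trend, and 0 to 38 without single arrays. Mequinenza minus Faio (12) gave 0 without the block, with 8 arrays and with array weights (176, 381 and 214 at an unadjusted p under 0.05 in limma). It gave 1 and 3 with the 75th percentile over tested and all probes, 1 with the median, with limma-trend and with sequence means, 2 with normexp, 6 with the authors' deposited table, 4 with the wider filter, 32 with none, and 0 to 209 without single arrays. Where a single array left out gave 0 calls in these contrasts, 213 to 562 probes had an unadjusted p under 0.05 in limma.

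Of the named probes' differences, 6 changed sign. CUST_69 of AF508224 was 0.00714 with median scaling. Without Mequinenza, CUST_11333, CUST_11335 and CUST_7562 of AM230425 were -0.0866, -0.0826 and -0.17, and CUST_712 and CUST_713 of EY436759 -0.14 and -0.0347. The causes of these changes were not tested. Of the other named values, 1135 kept sign and side of the threshold, 845 kept sign but missed the threshold and 26 newly passed it. Settings without the block, or without a Riba Roja or Sitjar array, cannot change a sign. The normexp alternative used median signals. Dim probes and the 2 dim arrays limit what could be tested.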
